A study of Homo sapiens with 6 samples.

Results

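Glutathione, the tripeptide of glutamate, cysteine and glycine, was represented by 10 genes for its synthesis, its reduction and cycling, the import of cystine and the making of cysteine from methionine. The members were the rows of the authors' table whose symbol equals GCLC, GCLM, GSS, GSR, SLC7A11, SLC3A2, GGT1, GGCT, CTH or CBS, which gave 10 of 28395 genes. RNA was sequenced from A375 cells, an established human melanoma line whose genotype the labels give only as WT, in 2 groups of 3 libraries. The control group was cultured for 6 h with 0.01% olive oil (OLO) and the treated group for 6 h with 0.01% ozonated olive oil (OZO). The labels do not say whether the libraries of a group came from separate cultures, while the study describes its A375 transcriptome data as 3 independent experiments.

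The value used for each gene is the authors' mean log2 CPM over all 6 libraries, OLO and OZO together, where CPM is a gene's reads scaled to a common library size. It gives how strongly a gene was expressed over both groups together and is the level of neither group alone. It cannot show how OZO and OLO differed, and differences between genes given below are likewise pooled over both groups. The fold changes and p-values in the same table are the authors' own comparison and were not used here. No spread between libraries comes with the mean, so the levels below are descriptions without a test, and the order of neighbouring genes cannot be read as a difference beyond replicate error.

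Glutathione is made in 2 steps. Glutamate-cysteine ligase joins glutamate and cysteine, which is the rate-limiting step, and glutathione synthetase then adds glycine. Cysteine is usually the scarce building block. Cells import it as cystine, its oxidised dimer, through the exchanger system xc-, or make it from methionine by transsulfuration. Glutathione feeds the peroxidase GPX4, which reduces lipid hydroperoxides, and loss of cystine uptake or of glutathione is a textbook route to ferroptosis.

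The lowest value in the table was shared by 7012 genes with no read in any library. From it follows that the effective library size, as a geometric mean, was 18409902 reads, so 1 CPM stood for about 18.4 reads per library. A gene at 0 over all libraries may still have reached 0.0272 CPM, the level that 3 reads in the total would give, which covers counting error only. Of the other 21383 genes, the median had a mean of 1.96 log2 CPM, or 3.89 CPM. The melanocyte lineage list was mostly low, with 2 of 8 markers above that median. SOX10, a neural crest and melanocyte transcription factor, had 5.64 log2 CPM and MITF, the melanocyte master regulator, had 4.76, whereas the pigment enzyme gene TYR had no read and PMEL had an implied 5.75 reads per library. The receptor genes AXL and NGFR, which mark weakly differentiated melanoma, had 8.06 and 5.24 log2 CPM. The remaining marker listed with them, SOX9, had 2.22 log2 CPM, close to the median gene. Of the markers of other cells, 2 of 4 keratinocyte, 1 of 5 fibroblast, 1 of 4 immune and 0 of 3 endothelial genes lay above the median gene. These included the keratin gene KRT10 with 4.67 log2 CPM and CD68, a lysosomal protein gene used as a macrophage marker, with 5.04, whereas KRT1 had no read. Their part in the levels of the glutathione genes was not tested.

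Most of the glutathione genes were strongly expressed. Of the 10 members, 8 lay above the median gene and 7 above the 75th percentile of genes with reads, and the median member had 6.64 log2 CPM. SLC3A2, GCLM and SLC7A11 had the highest CPM, not scaled to length, and CBS and GGT1 lay below the median gene. All 10 members had reads, and GGT1 alone fell short of an implied 10 reads per library.

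**Figure D1:**
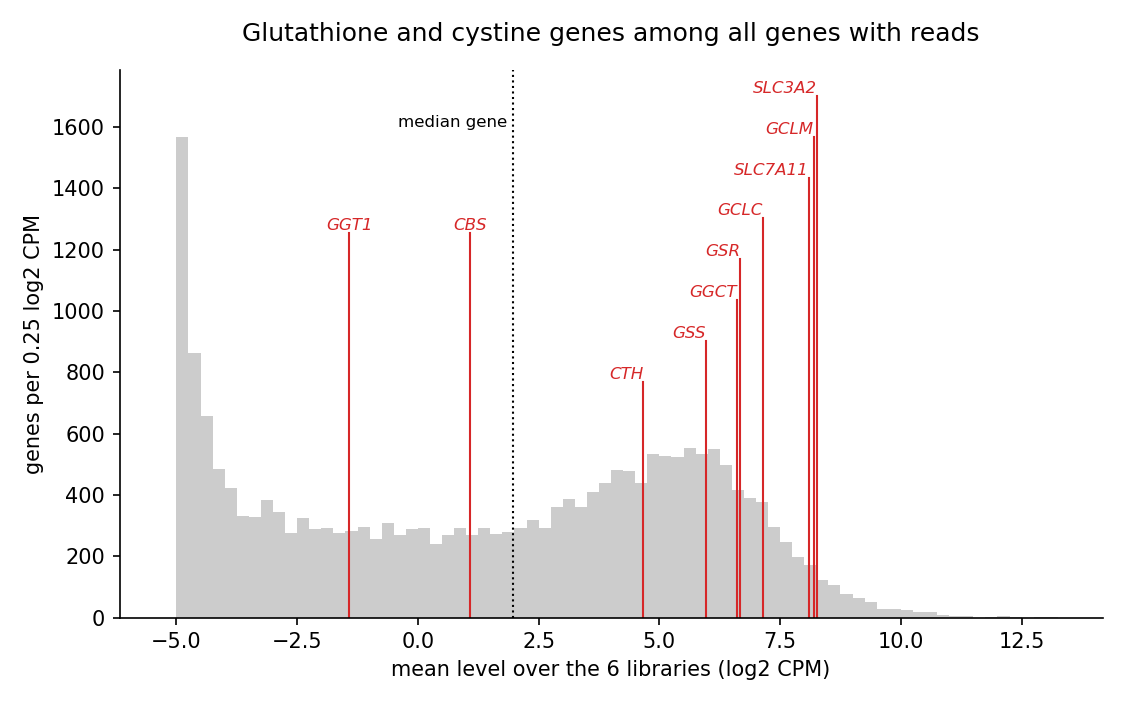
Histogram of the authors' mean log2 CPM over the 6 libraries for the 21383 genes with reads (x axis, mean level in log2 CPM; y axis, genes per bin). Red lines mark the 10 members and their heights carry no value; 8 stand to the right of the dotted median gene at 1.96, and CBS and GGT1 stand to its left.

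The genes of the first and rate-limiting step were both strongly expressed. GCLC, the catalytic subunit of glutamate-cysteine ligase (chromosome 6, 53497341 to 53545101), had a mean of 7.14 log2 CPM, or 141 CPM, from an implied 2590 reads per library. GCLM, the modifier subunit that raises the efficiency of the enzyme (chromosome 1, 93885199 to 93909430), had 8.20 log2 CPM, or 293 CPM, from an implied 5396 reads. They stood at percentiles 92.4 and 97.2 of genes with reads. Longer transcripts collect more reads, so levels of different genes were compared per kilobase of the longest annotated transcript. Per kilobase, GCLM had 60.0 CPM and GCLC 37.2 CPM, a difference in level of 0.69 on the log2 scale. GCLM remained the higher subunit with every measure of length tried, but the difference ranged from 0.66 to 2.28. The coding part of GCLM is 822 of 4883 bases, and that of GCLC is 1911 of 3785 bases.

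The enzymes that complete and recycle glutathione were also above the median gene. GSS, glutathione synthetase, which completes the tripeptide (chromosome 20, 34928432 to 34956027), had 5.96 log2 CPM from an implied 1142 reads per library. GSR, the reductase that returns oxidised glutathione to its reduced form with NADPH (chromosome 8, 30678066 to 30727846), had 6.68 log2 CPM from an implied 1884 reads. Per kilobase, GSS had 20.6 CPM and GSR 33.7 CPM. The interval between GSS and the other enzymes depended on the transcript chosen. With the MANE Select transcript, the single reference transcript agreed between RefSeq and Ensembl, GSS had 32.5 CPM per kilobase and was within 1.14-fold of GCLC and 1.04-fold of GSR.

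Both subunits of system xc- were among the members with the highest CPM, but per kilobase of the longest transcript SLC3A2 ranked 1 and SLC7A11 ranked 6 of 10. SLC7A11, the light chain that exchanges cystine for glutamate (chromosome 4, 138164097 to 138242349), had 8.10 log2 CPM, or 274 CPM, from an implied 5042 reads per library. SLC3A2, the heavy chain that carries the light chain to the plasma membrane (chromosome 11, 62856109 to 62888860), had 8.26 log2 CPM, or 307 CPM, from an implied 5653 reads. Near-equal reads were spread over transcripts of unequal length, 9645 bases for SLC7A11 and 2843 for SLC3A2. Per kilobase the heavy chain therefore had 108 CPM and the light chain 28.4 CPM, which is 3.80-fold higher for SLC3A2. Against coding length alone the levels were 194 and 182 CPM per kilobase, 1.06-fold apart, so the size of the difference between the subunits depends on the length used. SLC3A2 also serves other light chains. One of them, SLC7A5, the carrier of large neutral amino acids, had 116 CPM per kilobase of its longest transcript.

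On the strand opposite to SLC7A11 lies SLC7A11-AS1, whose exons cover 865 bases, or 8.97%, of the SLC7A11 reference transcript. SLC7A11-AS1 had 1.77 log2 CPM from an implied 62.2 reads per library. GCLC-AS1 covers 252 bases, or 6.66%, of the GCLC reference transcript and has no row in the table. Whether reads were counted by strand is not given in the sources used here, and without strand the reads of such partners cannot be told apart.

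The breakdown genes lay far apart, GGCT among the highest members per kilobase and GGT1 the lowest. GGCT, the cytosolic cyclotransferase that releases 5-oxoproline from gamma-glutamyl amino acids (chromosome 7, 30496621 to 30504829), had 6.61 log2 CPM from an implied 1796 reads. Its longest transcript has 1158 bases, so GGCT had 84.3 CPM per kilobase, next to SLC3A2 among the members. Of the GGCT reference transcript, 441 bases, or 38.1%, are also covered by exons of another gene on the same strand, ENSG00000281039, which has no row in the table. The overlap is from GENCODE, whereas the rows carry NCBI Gene numbers, so the missing row does not tell how such reads were counted. GGT1, the cell-surface enzyme that starts the breakdown of extracellular glutathione (chromosome 22, 24583750 to 24628996), had a mean of -1.42 log2 CPM from an implied 6.37 reads per library. For the reads of all 6 libraries together, counting alone gives an error of about 16.2%, and for a single library it is larger. GGT1 stood at percentile 32.4 of genes with reads. Per kilobase GGT1 had 0.142 CPM, the lowest of the 10 under each measure of length.

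The transsulfuration genes made the last pair. CTH, cystathionine gamma-lyase, which releases cysteine (chromosome 1, 70411268 to 70439851), had 4.67 log2 CPM from an implied 467 reads and stood at percentile 69.5. CBS, cystathionine beta-synthase, the enzyme before it (chromosome 21, 43053191 to 43076873), had 1.09 log2 CPM from an implied 38.6 reads and stood at percentile 45.4. Per kilobase CTH had 12.2 CPM and CBS 0.799 CPM, 15.2-fold apart. Every 75-base stretch within the exons of the CBS reference transcript, 100%, occurs again on chromosome 21 of the hg38 reference. How reads with more than 1 place were counted is not given in the sources used here. The level, the percentile and the 15.2-fold therefore describe the CBS row and do not show how strongly CBS itself was expressed.

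**Figure D2:**
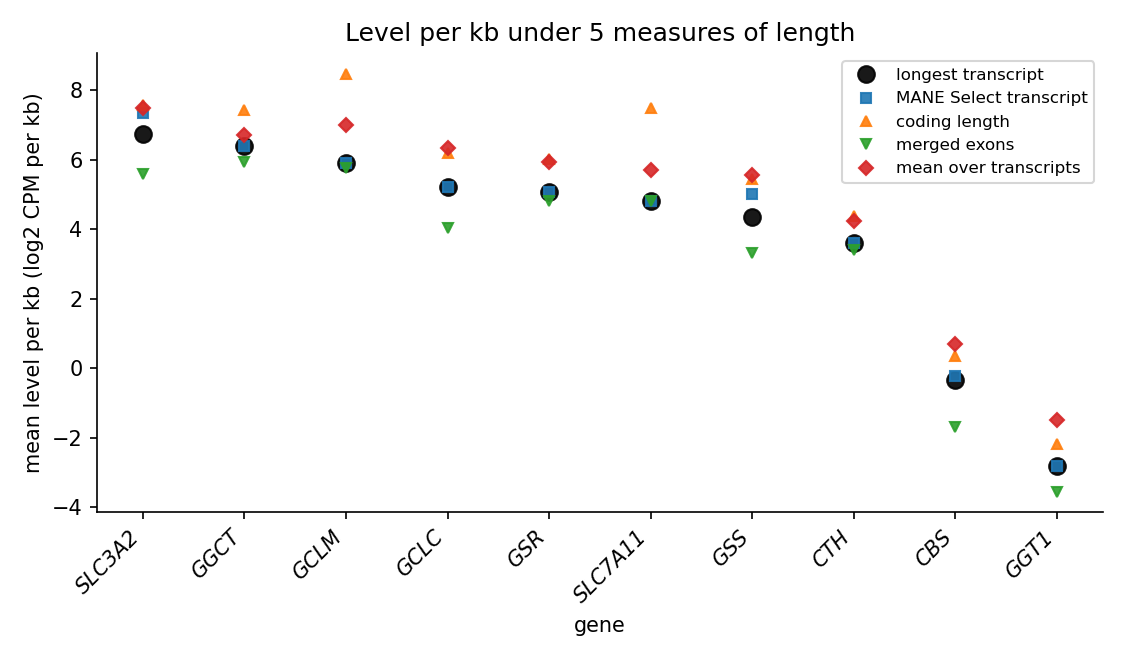
Mean level per kilobase (y axis, log2 CPM per kb) of the 10 members (x axis), ordered by the longest-transcript value. Each symbol is another measure of transcript length; CBS and GGT1 stay the lowest under all 5, while the order of the upper genes changes, with GCLM between places 1 and 3 and SLC7A11 between places 3 and 7.

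The levels of CBS and GGT1 rest on exons whose sequence is partly or wholly repeated in the hg38 reference. Whether A375 DNA holds the same copies was not tested. Every exon of the reference transcript of each member was cut into overlapping windows of 75 bases and each window was searched, letter for letter on both strands, in the primary chromosomes of hg38. All 1249 windows of CBS, 100%, were found again at chr21:6444869-6465019. For GGT1, 481 of 1455 windows, 33.1%, were found again. Of the other 8 members, 5 had no repeated window and the highest was GGCT with 3.36%, all in the pseudogene GGCTP1 on chromosome 5. Among 112 genes of the surrounding pathway lists, 9 had over 10% of their windows repeated and 1, GSTT2B with 91.6%, had over 90%.

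The fourth exon of CBS, a coding exon of 107 bases, was taken as the first mid-sized exon that is wholly coding. It is shown with its copy, and no base tells them apart. Capitals would mark bases that differ, and there are 0. Sequences are from hg38, 5′ to 3′ in the direction of the gene.
CBS, chr21:43068509-43068615, minus strand: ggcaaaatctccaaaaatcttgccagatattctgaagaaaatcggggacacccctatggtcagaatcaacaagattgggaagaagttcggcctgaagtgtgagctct
CBS copy, chr21:6460187-6460293, minus strand: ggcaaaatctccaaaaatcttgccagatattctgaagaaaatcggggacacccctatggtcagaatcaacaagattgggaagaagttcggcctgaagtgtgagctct

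The copy is annotated as LOC102724560 (RefSeq, GRCh38.p14, chromosome 21, 6444869 to 6468621), for which RefSeq lists CBSL as a synonym, and it has a row of its own in the table. LOC102724560 had 0.98 log2 CPM from an implied 35.7 reads per library, beside 38.6 reads for CBS itself, so both rows were 1.08-fold apart. Together they came to 74.3 reads, or 4.03 CPM, which would stand at percentile 50.3. The reads of CTH, not scaled to length as in the 15.2-fold above, were 6.29-fold those of both rows together. How the authors' counting treated reads with more than 1 place is not given in the sources used here, and its part in the low levels of both rows was not tested. The sum of the rows is likewise not a corrected level of CBS, since reads dropped from both rows would be missing from it.

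The neighbour of CBS is given beside it and was picked after its values were seen. U2AF1, a subunit of the general splicing factor that recognises the end of introns, lies in the same repeated part of chromosome 21, and 96.9% of its 75-base windows were found again. U2AF1 had 1.61 log2 CPM from an implied 55.9 reads per library, and its copy LOC102724594 had 2.50 log2 CPM. U2AF2, its partner subunit, with 0% of windows repeated, had 7.89 log2 CPM from an implied 4378 reads. These levels are not scaled to length, and the part of the repeated sequence in them was not tested.

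For GGT1 the copies are spread over several places. The 15th exon, a coding exon of 114 bases, was chosen among the mid-sized coding exons as the one with the most repeated windows and is shown with 3 copies. The sequence is identical in GGTLC2 and GGTLC4P and differs in 1 base, in capitals, in GGTLC1.
GGT1, chr22:24628275-24628388, plus strand: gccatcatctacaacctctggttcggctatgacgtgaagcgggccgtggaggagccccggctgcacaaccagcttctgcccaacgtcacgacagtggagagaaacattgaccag
GGTLC2, chr22:22647177-22647290, plus strand: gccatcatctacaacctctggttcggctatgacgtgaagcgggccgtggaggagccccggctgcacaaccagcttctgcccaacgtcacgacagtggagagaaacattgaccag
GGTLC4P, chr22:24248523-24248636, minus strand: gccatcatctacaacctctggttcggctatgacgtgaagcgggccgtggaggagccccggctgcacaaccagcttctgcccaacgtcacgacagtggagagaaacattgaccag
GGTLC1, chr20:23985667-23985780, minus strand: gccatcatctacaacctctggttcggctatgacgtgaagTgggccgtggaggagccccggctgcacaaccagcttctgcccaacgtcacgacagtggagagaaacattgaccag

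No read was counted for GGTLC1, GGTLC2, GGT2P or GGT3P in any library, and GGT8P had an implied 4.6 reads. How reads that match several places were counted is not given, so a row without reads does not show absent expression. GGT1 and the listed copies came to 11.0 reads per library together. GGT4P, GGTLC3, GGTLC4P and GGTLC5P, which hold further repeated windows, have no row under those symbols. Of the GGT1 reference transcript, 86.9% is also covered by exons of an overlapping gene on the same strand, ENSG00000286070, which has no row either. As for GGCT, this overlap is from GENCODE, and the missing row does not tell how such reads were counted. The more distant family members had unlike levels. GGT7 had 4.06 log2 CPM from an implied 307 reads with no window repeated, whereas GGT5 had an implied 0.10 reads and GGT6 had none.

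**Figure D3:**
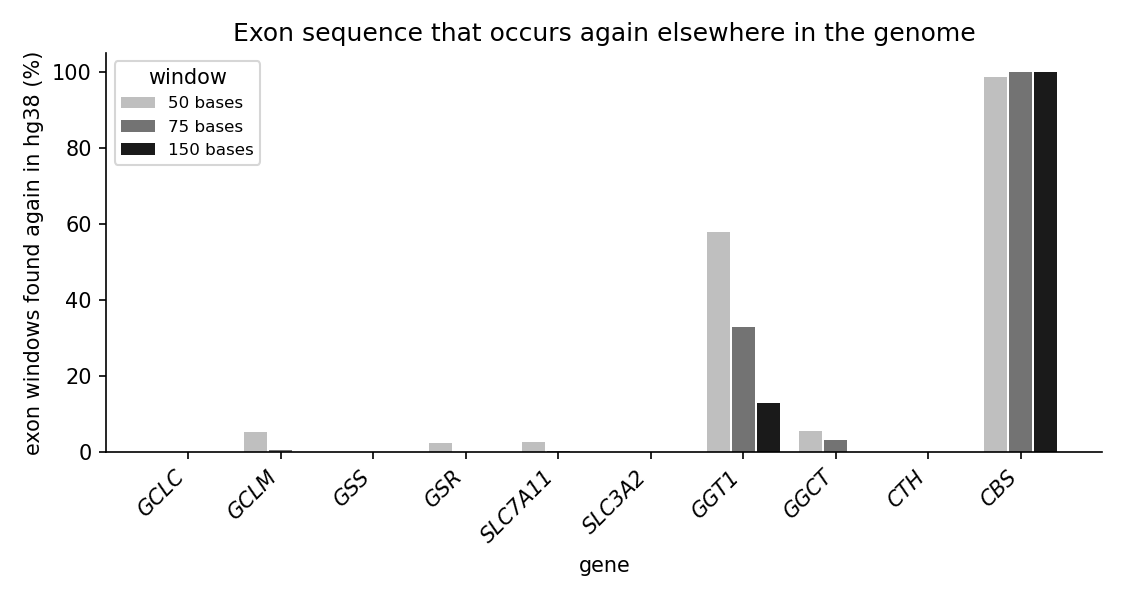
Share of exon windows of each member's reference transcript (x axis) that occur again on the primary chromosomes of hg38 (y axis, %), for windows of 50, 75 and 150 bases. CBS reaches 98.7% to 100%, GGT1 falls from 57.9% to 12.9% as the window lengthens, and the other 8 stay under 6%.

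The surrounding pathway also held strongly and weakly expressed genes. Of 13 other cystine, cysteine and glutamate transporters, 7 lay above the median gene. SLC1A5, a glutamine carrier, had 90.3 CPM per kilobase of its longest transcript and MFSD12, which imports cysteine into lysosomes and melanosomes, had 16.8. The cystine transporter of the kidney was near the floor, with an implied 0.221 reads for SLC7A9 and 1.62 for SLC3A1. Among 11 genes that supply glutamate and glycine, 9 were above the median gene. PSAT1, of serine synthesis, had 194 CPM per kilobase, GOT2, the mitochondrial aspartate aminotransferase, had 88.3, and SHMT2, which makes glycine from serine in mitochondria, had 54.7.

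Of 15 genes of the methionine cycle and sulfur use, 9 were above the median gene. MAT2A, which makes S-adenosylmethionine, had 198 CPM per kilobase of its longest transcript with 21.5% of its windows repeated, and AHCY, which yields homocysteine for transsulfuration, had 72.2. The liver-type MAT1A had an implied 1.38 reads and BHMT 0.366. Of 10 further breakdown and gamma-glutamyl cycle genes, 5 were above the median gene. ANPEP and LAP3, aminopeptidases, had 41.4 and 39.4 CPM per kilobase, CHAC2, which degrades cytosolic glutathione, had 24.7, and its relative CHAC1 had 2.88.

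Of 36 glutathione-using genes in the table, 23 were above the median gene and 6 had no read, GPX5, GPX6, GSTA1, GSTA2, GSTA3 and GSTA5. PRDX6, a peroxidase of phospholipids, had 201 CPM per kilobase of its longest transcript, GLO1, of methylglyoxal removal, had 120, GSTP1, a transferase, had 94.5, and MGST1, its membrane counterpart, had 64.3. Their order depends on the length used. With the MANE Select transcript GSTP1 had 214 and MGST1 150, while PRDX6 and GLO1 kept their values. All 10 genes of glutathione export and mitochondrial import, all 11 of parallel reduction and NADPH supply and all 8 regulators were above the median gene. TXN and TXNRD1, thioredoxin and its reductase, which can also reduce cystine, had 364 and 294 CPM per kilobase of the longest transcript. With the mean length over transcripts they had 421 and 699, in the reverse order. ATF4, a regulator of amino acid supply genes, had 219, with 17.0% of its windows repeated, and NFE2L2, which encodes NRF2, the activator of GCLC and GCLM, had 34.2.

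**Figure D4:**
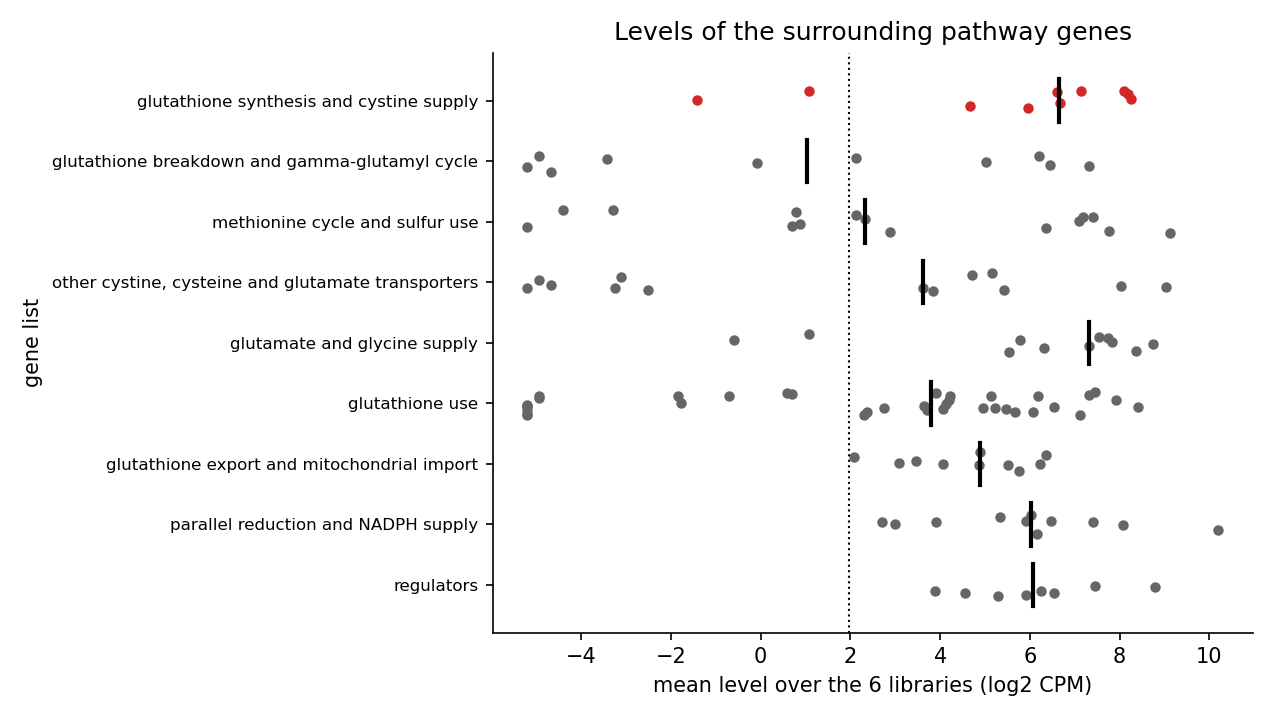
Authors' mean log2 CPM over the 6 libraries (x axis) of each gene in the glutathione group and in the 8 surrounding lists (y axis). Points are genes with a small vertical offset for legibility, bars are list medians and the dotted line is the median gene at 1.96; the glutathione group has a median of 6.64, and the export, reduction and regulator lists lie wholly above the dotted line.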

How the data were processed

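RNA-seq libraries of A375 cells (NEBNext Ultra II Directional kit, paired reads) were aligned by the authors to hg38 with HISAT2 2.1.0, counted per gene with featureCounts 2.1.1 and compared with limma-voom 3.58.1, per the submitters' processing notes and the study's methods. Normalization factors, filters and the use of strand or of multiply mapped reads in counting are not given in the sources used here. The deposited log2 values used here are the authors' mean log2 CPM per gene over the 6 libraries, with 0.5 added to each count. The other 5 value columns hold the authors' fold change, moderated t, p-value, adjusted p-value and log odds of that comparison and were not used, so the planned test of OZO against OLO was not run.

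Reads per library were derived from the lowest value, at which every library has 0 reads. Of 10694 low genes, 100% gave an odd whole number (within 0.01) as the product of the library counts doubled plus 1, up to 200. The 7012 genes with no read are among them and meet this by construction, so only the rest could have failed. An implied read number is a geometric mean and therefore approximate, and single-library depths are unknown. Lengths and exons are from GENCODE 44 (hg38), gene positions from RefSeq (GRCh38.p14, counted from 1). Of 28395 genes, 27745 matched RefSeq by NCBI Gene number. Calculations used Python 3.11.15, numpy 2.4.6, pandas 2.3.3, scipy 1.17.1 and numba 0.67.0 and were tested on simulated data. All 10 members are named, and up to 4 genes of each list with the highest level per kilobase, besides other listed genes named for their low values or roles after these were seen. Some listed genes are not reported here. Members and lists were chosen with earlier results of these data known. U2AF1, U2AF2, LOC102724560 and LOC102724594 were added after the data were seen. Alternatives changed the length, the genes ranked, the 0.5 and the window size.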

Additional observations from a re-analysis of the deposited data

How the results depend on the processing

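No paired analysis was possible because the table gives only means over all libraries. For the same reason the OZO and OLO comparison with edgeR, DESeq2 size factors, other filters and each replicate left out was not run. Of the 10 members, 8 were above the median of genes with reads, of protein-coding genes with reads and of genes reaching 10 implied reads, and 9 above that of all genes. Above the 75th percentile stood 7 members, 8 against all genes and 6 against genes reaching 10 implied reads. The log2 difference per kilobase of GCLM minus GCLC, 0.69, became 2.28 with coding length, 1.73 with merged exons and 0.66 with the mean over transcripts. SLC3A2 minus SLC7A11, 1.93, became 0.087, 0.76 and 1.78 with the same measures and 2.52 with the MANE Select transcript. CTH minus CBS, 3.93, became 5.07 with merged exons and 3.56 with the mean over transcripts. These changes follow from the lengths alone. Reads with the copies added were 11.0 for GGT1 and 74.3 for CBS, without any reads dropped because they match several places. Repeated windows of GGT1 came to 57.9% with 50 bases and 12.9% with 150 bases, and those of CBS to 98.7% with 50 bases. The MANE Select lengths and the 50- and 150-base windows were added once values had been seen. The largest counting error was that of GGT1.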
